A study of Papio anubis with 28 samples.

Results

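The chemokines and their receptors were examined as a set of 48 genes among the 27533 genes of the count table. Members were taken by symbol, as every gene named CCL, CXCL, CX3CL, XCL, CCR, CXCR, CX3CR or XCR followed by a digit, together with IL8, the older symbol of the neutrophil chemoattractant CXCL8. The set held 32 ligands and 16 receptors. Enough reads were present to test 45 of the 48, and CCL1, CCL14 and CCL16 were too sparse. Ligands such as CXCL1, CXCL2, CXCL3, CXCL5 and CCL5 and the receptor CCR6 were not analysed here under those symbols.

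The samples were bulk RNA-seq libraries from the urinary bladders of 14 wild-type olive baboons (Papio anubis) that had received a bladder augmentation, and native bladder and grafted region were each sequenced once per animal. The Entero arm (5 animals) received a patch of the animal's own bowel, labelled as an ileum graft, as in conventional enterocystoplasty. For the SIS arm (5 animals) and the PRS arm (4 animals), the region had regenerated over a scaffold carrying primary cells of bone marrow, labelled as mesenchymal stem cells with CD34+ haematopoietic stem and progenitor cells (MSC/CD34+ HSPC graft). SIS was read as small intestinal submucosa, an acellular collagen matrix. The sources used here do not give the expansion of PRS, the ages of the animals or the interval from operation to sampling. The native bladder libraries of each arm carried the same treatment tag as the grafts and came from operated animals, so no group represents an untouched bladder. Below, a library is named by its arm, its tissue and its animal number, and the regenerated tissue of the 2 scaffold arms (Regen in the plots) is called SIS graft or PRS graft.

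Chemokines are small secreted proteins that bind G protein-coupled receptors on leukocytes and direct them along a concentration gradient. Ligands induced in inflammation draw neutrophils, monocytes and effector T cells, whereas homeostatic ligands made by stroma and epithelium place lymphocytes in lymphoid organs, gut and other mucosae. In the bowel, CCL25 and its receptor CCR9 bring lymphocytes to the small intestine, and CCL28 and CCR10 bring antibody-secreting cells to mucosal surfaces. In the bladder, urothelial cells release IL8 and related ligands in infection and injury.

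Library totals ran from 20975648 to 35669026 reads assigned to genes. The intestinal epithelium markers (9 of 10 found) summed to 1927 to 13368 CPM (counts scaled to library size) in the ileum grafts and to 6.63 to 203 CPM in every other library. The urothelium markers (8 of 9 found) summed to 495 to 2383 CPM in the ileum grafts and to 253 to 7438 CPM elsewhere. Of the 8 urothelial genes, 7 fell and 1 rose in the ileum grafts against native bladder. The mitochondrial share of counts ranged over 14.0% to 33.9% for ileum grafts and over 4.66% to 11.6% for all other libraries. SIS graft 2 stood apart from its group in chemokine level. Its ligands summed to 2496 CPM against 302 to 609 CPM in the other 4 SIS grafts, and each result that rests on it is given with and without it. In bulk tissue, fewer cells of a type and less RNA per cell cannot be told apart.

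The constitutive stromal ligand CXCL12 had the highest level per kilobase of gene length in both SIS groups and in Entero native bladder. Its mean was 246 CPM per kb in Entero native bladder, 344 in SIS native bladder and 309 in SIS grafts. In the ileum grafts the order of mean levels per kilobase began with CCL20 at 227, CCL25 at 206 and CXCL12 at 148 CPM per kb. In PRS native bladder CXCL17 (217 CPM per kb) and CXCL12 (209.6 CPM per kb) led, and in PRS grafts CXCL17 reached 393, CXCL12 229.8, CCL20 129 and CXCL6 111 CPM per kb. The place of CXCL17 rested on PRS animal 4. Without it CXCL12 led in native bladder (240.8 against 19.1 CPM per kb for CXCL17) and in grafts (223 against 177 CPM per kb for CXCL17). Without ileum graft 2 the ileum order was CXCL12 at 169, CCL25 at 166 and CCL20 at 148 CPM per kb. Summed over the 32 ligands, the mean level was 1234 ± 439 CPM (SD, n = 5) in ileum grafts and 612 ± 299.7 CPM (n = 5) in Entero native bladder. The corresponding sums were 355 ± 103 CPM in SIS native bladder, 825 ± 942 in SIS grafts, 561 ± 542 in PRS native bladder (n = 4) and 759 ± 447 in PRS grafts. Without SIS graft 2 the SIS graft mean was 407 ± 142 CPM (n = 4), and without PRS native 4 the PRS native mean was 291 ± 49.5 CPM (n = 3). Receptor sums were lower throughout, with means between 28.5 CPM in SIS native bladder and 114 CPM in PRS native bladder. The PRS native mean was 45.1 CPM without PRS native 4, and the Entero native mean of 103 CPM was 45.7 CPM without Entero native 2. Because poly-A reads scale with transcript length, these orders hold only for the per-kilobase scale, and the widest groups have SDs as large as their means.

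**Figure D1:**
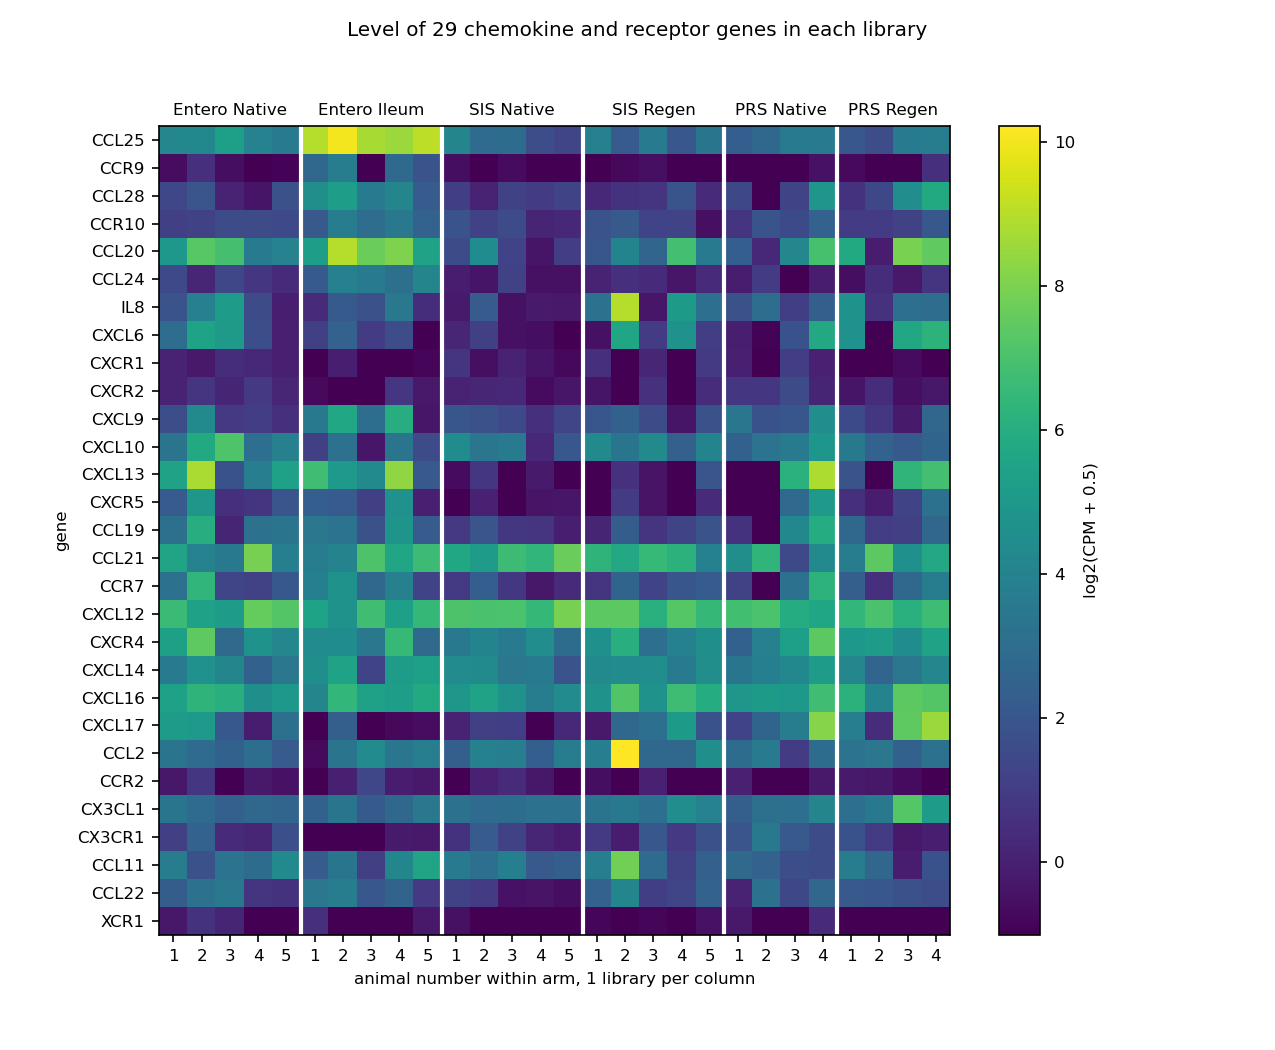
Level of 29 chemokine and receptor genes (rows) in each of the 28 libraries (columns, ordered by arm and tissue) as log2(CPM + 0.5), on a colour scale from dark purple (low) to yellow (high). CCL25 is high in all 5 ileum grafts, and SIS graft 2 stands apart from the other SIS grafts in IL8, CCL2 and CCL11.

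In the comparison of grafted with native tissue, 6 of the 45 tested members passed an adjusted p of 0.05 in the Entero arm, 4 higher and 2 lower in the ileum graft (edgeR quasi-likelihood test, Benjamini-Hochberg adjustment over 17177 genes). Over all genes tested, 15% passed in that arm, 7.72% higher and 7.33% lower, so the share among chemokines was near the share among all genes. At an unadjusted p under 0.05, 6 members were higher and 5 lower, against 13.9% and 14.6% of all genes. Scaling by library totals alone, without the TMM (trimmed mean of M values) step, gave 2 higher and 3 lower, with the median of all genes shifted to -0.45 from -0.03 on the log2 scale. In the SIS arm 0 members passed (0% of all genes), with 9 higher and 0 lower at an unadjusted p under 0.05 (3.73% and 1.14% of all genes), and DESeq2 called 2 higher (0.299% of all genes). Without SIS graft 2 the 9 became 4, and 2.39% of all genes were then higher. In the PRS arm 0 members passed (0%), with 1 higher and 2 lower unadjusted (2.5% and 1.12%), and DESeq2 called 1 higher (0.124%). Averaged over both scaffold arms, edgeR again called 0 (0%), with 8 higher and 0 lower at an unadjusted p under 0.05 (4.21% of all genes were higher). Without SIS graft 2 there were 5 higher (3.35% of all genes). For this mean DESeq2 called 2 higher with all libraries (0.252%). The median log2 fold change of the 45 members was 0.04 in the Entero arm, 0.56 in the SIS arm (0.38 without SIS graft 2) and -0.41 in the PRS arm. The corresponding medians of all genes tested were -0.03, 0.03 and 0.02.

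Of the 9 lists of members, gut and mucosal homing held the most calls in ileum grafts. All 6 measured members of this list had positive log2 fold changes against native bladder, with a median of 2.61, and 3 of the 6 passed the test. Among SIS animals 3 of the 6 were above 0 with a median of 0.14, and in the PRS arm 3 of the 6 with a median of 0.58.

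CCL25 (ENSPANG00000025895), made by small intestinal and thymic epithelium, was measured at 507, 1031, 430.2, 374 and 543 CPM in the 5 ileum grafts and at 17.6, 18.2, 39.5, 15.4 and 11.4 CPM in the native bladders of the same animals. Every graft lay above every native library, with the lowest graft several times above the highest native sample. The rise was 4.82 on the log2 scale (SE 0.62, 95% interval 3.56 to 6.09, adjusted p = 6.64e-06, edgeR, higher in 5 of 5 animals). The scaffold arms had low levels in both tissues. CCL25 averaged 7.15 ± 5.85 CPM in SIS native bladder and 8.75 ± 4.72 CPM in SIS grafts (n = 5 each), and 8.81 ± 4.03 and 7.68 ± 5.26 CPM in PRS native and graft (n = 4 each). These ranges overlap throughout.

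CCR9 (ENSPANG00000008750), the receptor of CCL25 on gut-homing lymphocytes, was at 6.39, 12.7, 0, 6.65 and 3.14 CPM in the ileum grafts and at 0.145, 0.988, 0.159, 0 and 0.0387 CPM in their native bladders. Ileum graft 3 had no CCR9 read although its CCL25 level was 430.2 CPM, and the other 4 ileum grafts lay above all native libraries. The log2 fold change of 4.40 (SE 1.68) missed the threshold in edgeR (adjusted p = 0.0792, higher in 4 of 5 animals) and passed in DESeq2 (4.45, adjusted p = 0.0453; 11.8% of all genes called higher by DESeq2). In edgeR the CCR9 change passed without Entero native 2 (6.004, adjusted p = 0.0434) and also without ileum graft 3. In the 18 libraries of the scaffold arms CCR9 stayed at or below 0.947 CPM.

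CCL28 (ENSPANG00000021404), a mucosal epithelial ligand, was at 22.7, 37.7, 11.98, 16.7 and 4.24 CPM in the ileum grafts against 2.10, 3.43, 0.555, 0.269 and 2.98 CPM in native bladder. The groups did not overlap, although the lowest graft was close to the highest native library. It rose by 3.32 (log2, SE 1.11, 95% interval 1.04 to 5.59, adjusted p = 0.0429, edgeR, 5 of 5 animals). This call was lost with library totals alone (2.86, adjusted p = 0.0677), with no filter on low counts (adjusted p = 0.0506) and on leaving out any of 8 of the 10 libraries in turn (2.89 to 3.66, adjusted p up to 0.0967). In PRS animal 4 CCL28 reached 28.3 CPM in native bladder and 55.3 CPM in the graft, and PRS graft 3 had 21.9 CPM. The graft of animal 4 was the highest of all 28 libraries. The other PRS libraries were between 0 and 2.24 CPM.

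CCR10 (ENSPANG00000021425), the receptor for CCL28 and CCL27, was at 3.92, 12.6, 7.50, 10.7 and 5.34 CPM in ileum grafts and at 1.70, 1.74, 2.50, 2.50 and 2.28 CPM in native bladder. The grafts all lay above the native libraries. The rise was 1.90 (log2, SE 0.60, 95% interval 0.67 to 3.13, adjusted p = 0.0316, edgeR, 5 of 5 animals), and it did not pass with library totals alone (1.56, adjusted p = 0.0734) or on leaving out any of 6 of the 10 libraries (1.68 to 2.08, adjusted p up to 0.0816). Counting groups that do not overlap, the ileum grafts lay wholly above native bladder for 4 members (CCL24, CCL25, CCL28 and CCR10) and wholly below for CX3CR1. Among all genes tested, 5.52% lay wholly above and 5.86% wholly below.

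CCL20, an epithelial ligand of follicle-associated epithelium that acts on CCR6, was at 38.9, 509, 210.2, 264 and 44.3 CPM in ileum grafts and at 31.4, 158, 119, 11.5 and 15.4 CPM in native bladder. All 5 Entero animals had more in the graft, but the groups overlapped widely and it did not pass the test. CCL20 spanned 0.734 to 123 CPM in PRS native bladder and 0.399 to 248 CPM in PRS grafts. Averaged over both scaffold arms its log2 fold change was 2.10 (unadjusted p = 0.0415, adjusted p = 0.955, edgeR, higher in 7 of 9 animals), with 1.24 for CCL20 without SIS graft 4 and 3.21 without PRS native 4. The intestinal epithelium marker genes rose in the ileum grafts in 9 of 9 cases, with sums of 1927 to 13368 CPM against 43.4 to 203 CPM in native bladder. The B and plasma cell markers (9 of 11 found) had overlapping sums in ileum grafts (57.5 to 1250.3 CPM) and Entero native bladder (21.5 to 1030.5 CPM). The part of either cell type in the homing gene values was not tested.

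**Figure D2:**
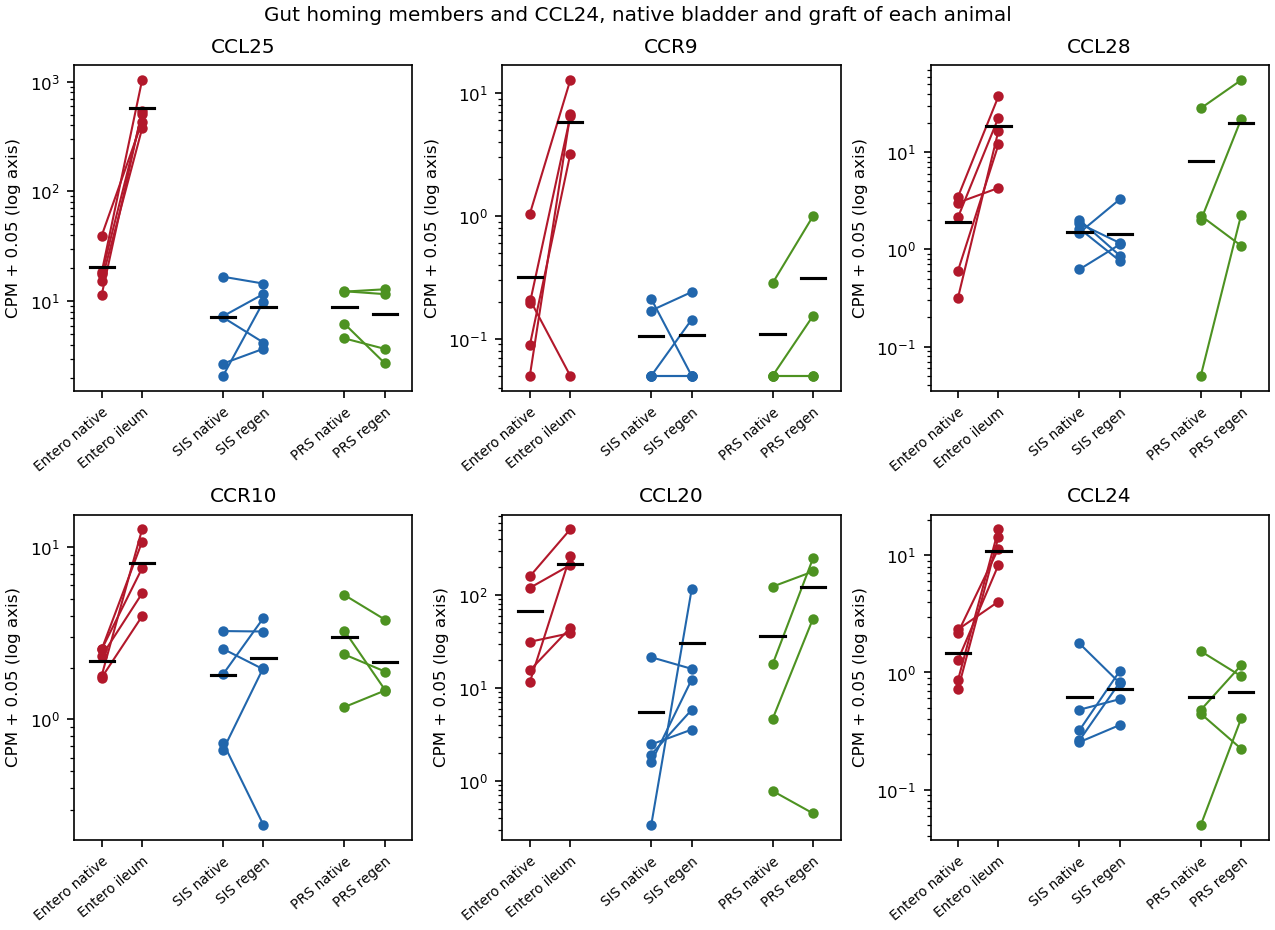
CPM + 0.05 on a log axis for 6 genes (CCL25, CCR9, CCL28, CCR10, CCL20 and CCL24) in native and grafted tissue of each arm, each line joining the libraries of 1 animal and black bars marking group means. The ileum grafts lie wholly above their native bladders for CCL25, CCL28, CCR10 and CCL24, while the scaffold arms overlap.

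The neutrophil-attracting members measured here were the ligands IL8 and CXCL6 and their receptors CXCR1 and CXCR2. In ileum grafts all 4 had log2 fold changes below 0 (median -2.03) and 0 of 4 passed. Among SIS animals 3 of 4 were above 0, with a median of 2.60, or 2.10 without SIS graft 2. Among PRS animals 2 of 4 were above 0 with a median of -0.18.

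IL8 (ENSPANG00000018599) was at 8.48, 504, 0.299, 34.1 and 7.98 CPM in SIS grafts and at 0.377, 4.19, 0.200, 0.368 and 0.341 CPM in the native bladders of the same animals. Each of the 5 animals had more IL8 in its graft. In animal 3 that difference was between 0.299 and 0.200 CPM, and in animal 2 it was between the highest library of each group. The groups overlapped, since SIS graft 3 was below 4 of the native libraries. The change was 6.64 on the log2 scale (SE 1.58, 95% interval 3.39 to 9.89, adjusted p = 0.332, edgeR), DESeq2 called it, and without SIS graft 2 it was 3.52. In PRS animals IL8 was at 2.94, 7.50, 1.60 and 4.75 CPM in native bladder and 26.7, 0.999, 8.10 and 7.61 CPM in grafts, higher in 3 of 4. In the Entero arm it was at 3.18, 14.1, 36.9, 2.57 and 0.464 CPM in native bladder and at 0.805, 4.01, 2.92, 10.8 and 0.898 CPM in ileum, higher in 2 of 5. Across both scaffold arms the mean log2 fold change of IL8 was 4.01 (SE 1.06, adjusted p = 0.535, edgeR, higher in 8 of 9 animals), or 2.45 without SIS graft 2, and DESeq2 called it.

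CXCL6 (ENSPANG00000009091), an epithelial and stromal ligand of CXCR1 and CXCR2, was at 0.203, 48.8, 1.47, 26.3 and 1.59 CPM in SIS grafts and at 0.647, 1.66, 0.200, 0.164 and 0 CPM in SIS native bladder. SIS grafts 2 and 4 were the high libraries, as they were for IL8. This gave a change of 4.83 (log2, SE 1.76, adjusted p = 0.824, edgeR, higher in 4 of 5 animals), or 3.75 without SIS graft 2. PRS native values of 0.452, 0.0408, 3.04 and 54.4 CPM compared with 24.8, 0, 51.8 and 75.8 CPM in grafts. PRS animal 2 had almost no CXCL6 in either tissue, and animals 1, 3 and 4 were higher in the graft. The ileum grafts had 1.71, 5.22, 1.51, 2.66 and 0 CPM against 7.52, 44.9, 33.2, 2.77 and 0.503 CPM in native bladder, lower in every animal, with overlapping groups and no call.

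CXCR1 and CXCR2, carried by neutrophils, stayed at or under 1.57 and 2.52 CPM in all 28 libraries. CXCR1 had no read in 3 of the 4 PRS grafts and 0.130 CPM in the other, against 0.480, 0, 1.57 and 0.507 CPM in PRS native bladder, lower in 3 of 4 animals (change -4.08 on the log2 scale, SE 1.75, adjusted p = 1, edgeR). Without PRS graft 3 the fit gave -7.14 for CXCR1, but no graft read then remained, so the size of that change was not measured. In SIS graft 2, which had the highest IL8 of all libraries, neither receptor had a read. The neutrophil markers (7 of 9 found, with S100A12 or MMP8 at 0 in some groups) summed to 16.9 to 109.8 CPM in SIS grafts and 2.58 to 111 CPM in SIS native bladder, and SIS graft 2 was at 56.6 CPM. They summed to 18.8 to 158 CPM in PRS native bladder and 6.79 to 63.5 CPM in PRS grafts. In the Entero arm the same sum was 119.9 to 411 CPM in native bladder and 6.39 to 37.9 CPM in ileum grafts, without overlap. Gene by gene, 1 of the 5 tested neutrophil markers fell in ileum grafts and 0 rose. The part of neutrophil number in the IL8 and CXCL6 values was not tested.

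**Figure D3:**
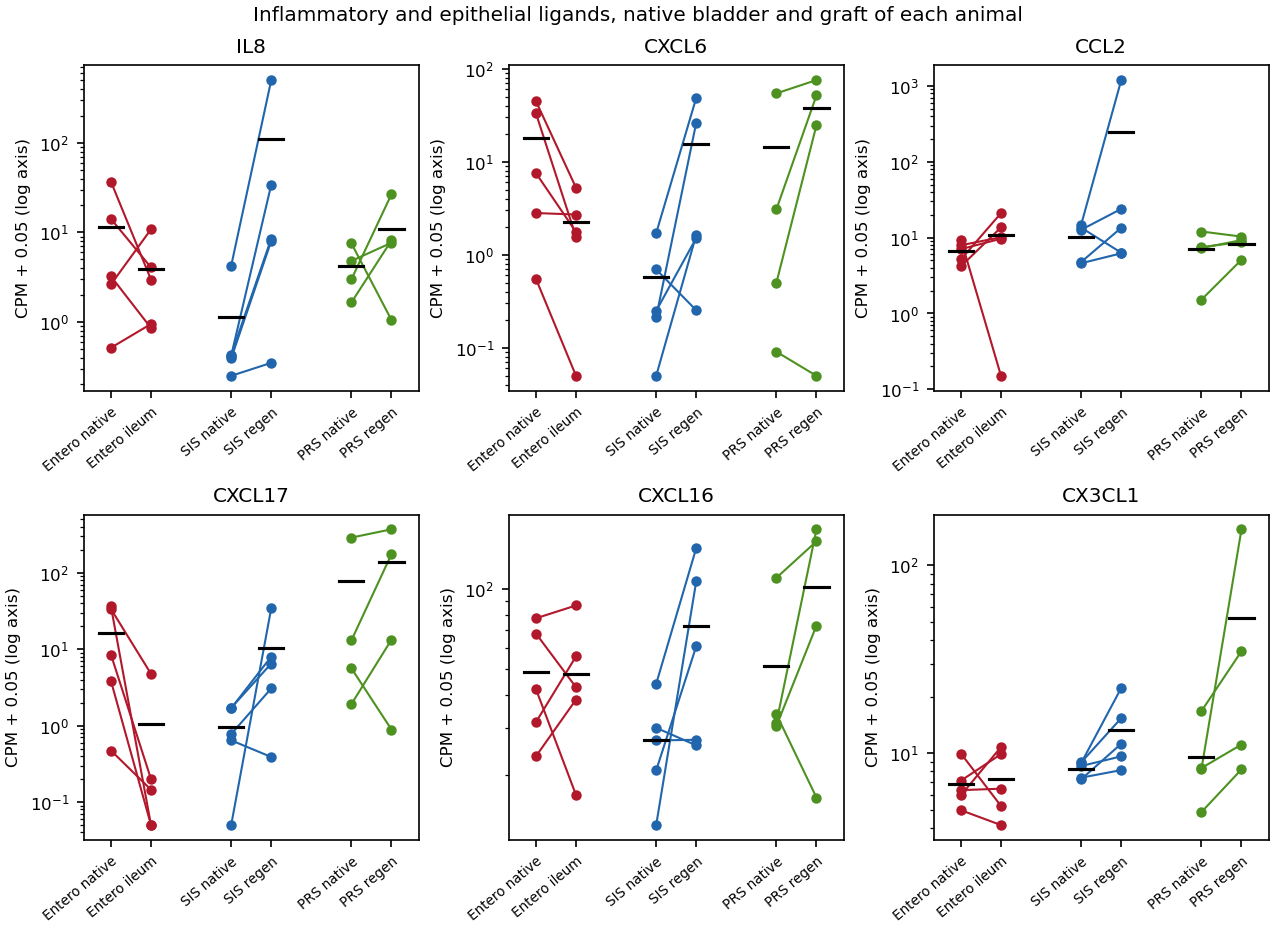
CPM + 0.05 on a log axis for 6 genes (IL8, CXCL6, CCL2, CXCL17, CXCL16 and CX3CL1) in native and grafted tissue, each line joining the libraries of 1 animal and black bars marking group means. SIS graft 2 lies far above the other SIS grafts for IL8 (504 CPM) and CCL2 (1196 CPM), and CX3CL1 is higher in the graft in all 9 scaffold animals.

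Among the monocyte-attracting ligands and receptors, 1 of 6 fell in ileum grafts (median log2 fold change -1.15) and 0 of 6 passed in either scaffold arm (medians 0.00 in SIS and -0.21 in PRS).

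CX3CR1 (ENSPANG00000020831), the fractalkine receptor of patrolling monocytes, tissue macrophages and cytotoxic lymphocytes, had 0, 0, 0, 0.380 and 0.349 CPM in the ileum grafts. The native bladders of those animals had 1.70, 5.32, 0.754, 0.653 and 2.86 CPM. All grafts lay below all native libraries, and 3 grafts had no read. It fell by 3.91 on the log2 scale (SE 1.06, 95% interval -6.09 to -1.72, adjusted p = 0.0124, edgeR, lower in 5 of 5 animals), a call kept on leaving out each library in turn (adjusted p up to 0.0375) but not with these groups fitted alone (adjusted p = 0.0695). CX3CR1 was also lower in the graft of all 4 PRS animals, at 3.45, 11.1, 3.91 and 2.49 CPM in native bladder and 3.05, 1.52, 0.357 and 0.473 CPM in grafts, without passing the test. It was higher in 4 of the 5 SIS grafts. The macrophage and monocyte markers (11 of 11 found) had overlapping sums in ileum grafts (175 to 645 CPM) and Entero native bladder (203 to 485 CPM), and 1 of the 11 rose and 0 fell. In PRS native bladder the sum was 228 to 448 CPM and in PRS grafts 74.6 to 338 CPM, and its part in CX3CR1 was not tested.

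CX3CL1 (ENSPANG00000009401, fractalkine), the membrane-bound ligand of CX3CR1 on endothelium and epithelium, was at 8.14, 11.1, 156 and 34.9 CPM in PRS grafts and at 4.80, 8.28, 8.15 and 16.7 CPM in the native bladders of those animals. Every graft exceeded its own native sample, while the groups overlapped and PRS graft 3 was far above the rest. The log2 fold change was 2.47 (SE 0.62, 95% interval 1.19 to 3.75, adjusted p = 1, edgeR), DESeq2 called it (2.49, adjusted p = 0.0308), and without PRS graft 3 it was 0.93. The SIS levels were 9.56, 11.2, 8.07, 22.2 and 15.3 CPM in grafts and 8.49, 7.20, 7.35, 8.80 and 8.88 CPM in native bladder, again higher in each of the 5 animals. Averaged over both scaffold arms, the log2 fold change of CX3CL1 was 1.59 (SE 0.41, adjusted p = 0.504, edgeR, higher in 9 of 9 animals; DESeq2 adjusted p = 0.0302), and 0.82 without PRS graft 3. In the Entero arm it was at 4.09 to 10.7 CPM in grafts and 4.92 to 9.90 CPM in native bladder, higher in 3 of 5.

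CCL2 (ENSPANG00000023035), the main ligand of CCR2 on classical monocytes, was at 13.4, 1196, 6.28, 6.16 and 23.9 CPM in SIS grafts and at 4.72, 14.8, 13.5, 4.54 and 12.6 CPM in SIS native bladder. SIS graft 2 alone was far outside the native range, and the mean of the other 4 grafts was 12.4 ± 8.35 CPM (SD). The log2 fold change of 4.63 (SE 1.20, adjusted p = 0.426, edgeR, higher in 4 of 5 animals) became 0.31 without that library. Among PRS animals CCL2 was at 1.47 to 11.99 CPM in native bladder and 5.06 to 10.3 CPM in grafts. CCR2 was scarce, with no library above 2.14 CPM. The related ligands CCL8 and CCL13 were higher in the ileum graft in 0 and 1 of 5 animals, with ranges of 0 to 1.28 and 0 to 7.54 CPM in grafts against 1.24 to 3.54 and 4.05 to 43.4 CPM in native bladder, and neither passed. The fibroblast and lymphoid stroma markers (9 found) summed to 28744 CPM in SIS graft 2, the highest of the SIS grafts. The urothelium markers summed to 575 CPM there, the lowest of the SIS grafts. The part of either in the CCL2 and IL8 levels of SIS graft 2 was not tested.

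The interferon-inducible ligands CXCL9, CXCL10 and CXCL11 attract activated T and natural killer cells through CXCR3. Of the 4 genes, 1 fell in ileum grafts (median log2 fold change -1.17). In the SIS arm all 4 were above 0 (median 0.46) and in the PRS arm none of the 4 (median -1.42), with 0 called in both.

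CXCL10 (ENSPANG00000008857) was at 1.66, 8.73, 0.292, 9.55 and 2.55 CPM in ileum grafts and at 9.36, 55.8, 139.7, 7.96 and 14.5 CPM in native bladder. The groups overlapped through animal 4, the exception among 5 animals. It fell by 3.32 (log2, SE 0.89, 95% interval -5.16 to -1.48, adjusted p = 0.0118, edgeR). The call was lost without Entero native 3 (-2.26, adjusted p = 0.0753), with the animal as a replicate block (-2.74, adjusted p = 0.0731) and with these groups fitted alone (adjusted p = 0.0544).

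CXCL9, from the same family, took the other direction in ileum grafts, at 11.1, 52.9, 7.89, 63.4 and 0.299 CPM against 2.75, 20.5, 1.31, 1.54 and 0.928 CPM in native bladder. The graft was higher in animals 1 to 4 and lower in animal 5, and the groups overlapped. Its change was 2.32 (log2, SE 1.01, adjusted p = 0.124, edgeR), and DESeq2 gave an adjusted p of 0.0477. Without Entero native 2 the CXCL9 change was 4.06 and passed (adjusted p = 0.0114, edgeR). The ratio of CXCL9 to CXCL10 in CPM, a measure chosen after the values had been seen and so not tested, was 6.67, 6.06, 27.0, 6.63 and 0.118 in the ileum grafts. In the native bladders of those animals it was 0.293, 0.367, 0.00937, 0.193 and 0.0638. In the scaffold arms CXCL10 was at 0.737 to 21.5 CPM in SIS native bladder, 4.99 to 19.6 CPM in SIS grafts, 5.14 to 29.4 CPM in PRS native bladder and 3.99 to 11.0 CPM in PRS grafts. CXCL9 was lower in the graft of all 4 PRS animals, at 9.94, 3.06, 3.56 and 22.0 CPM in native bladder and 2.36, 1.24, 0.389 and 6.11 CPM in grafts, without passing the test. The T and natural killer cell markers (12 of 12 found) summed to 42.3 to 428 CPM in PRS native bladder and 21.01 to 137 CPM in PRS grafts, to 59.5 to 377 CPM in Entero native bladder and to 86.8 to 286 CPM in ileum grafts, and their part in these values was not tested.

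The lymphoid tissue genes (CXCL13 with its receptor CXCR5, and CCL19 and CCL21 with CCR7) organise B cell follicles and T cell zones. None of the 5 passed in the Entero, SIS or PRS arm, with medians of -0.16, 0.96 (0.24 without SIS graft 2) and -1.67. CXCL13 (ENSPANG00000015661), the B cell follicle ligand, was at 44.2, 449.5, 3.01, 13.4 and 43.0 CPM in Entero native bladder and at 109, 32.2, 19.96, 331 and 3.84 CPM in ileum grafts. It did not exceed 3.33 CPM in any SIS library. Among PRS animals it was at 0, 0, 71.5 and 458 CPM in native bladder and at 3.15, 0, 79.7 and 117 CPM in grafts, so animals 3 and 4 were high in both tissues and animals 1 and 2 low in both. The library codes of PRS animals 1 and 2 carry the letter F and those of animals 3 and 4 the letter M. In the Entero arm the highest native value was in animal 2 (F) and the highest graft value in animal 4 (M). The part of this letter was not tested.

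CXCR5 was highest in the libraries with the most CXCL13, with 30.3 CPM in Entero native 2, 25.3 CPM in ileum graft 4 and 32.9 CPM in PRS native 4. CCL19 was at 63.3 and 62.0 CPM in Entero native 2 and PRS native 4, and its receptor CCR7 at 82.8 and 76.9 CPM in those libraries. In PRS grafts CCL19 was at 6.34, 1.56, 1.65 and 6.03 CPM against 1.07, 0, 18.6 and 62.0 CPM in native bladder, with a change of -2.39 (log2) that did not pass and was -0.75 without PRS native 4. CCL21, made by lymphatic endothelium and lymph node stroma, behaved differently. It was present in every library, from 2.28 to 240.2 CPM, and its highest values were in Entero native 4 (240.2 CPM), SIS native 5 (199.9 CPM) and PRS graft 2 (170.2 CPM). The B and plasma cell markers summed to 1030.5 CPM in Entero native 2, 1250.3 CPM in ileum graft 4 and 1083 CPM in PRS native 4, and to at most 22.8 CPM in the SIS libraries, where PAX5 had no read. The part of B cell number in CXCL13 and CXCR5 was not tested.

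**Figure D4:**
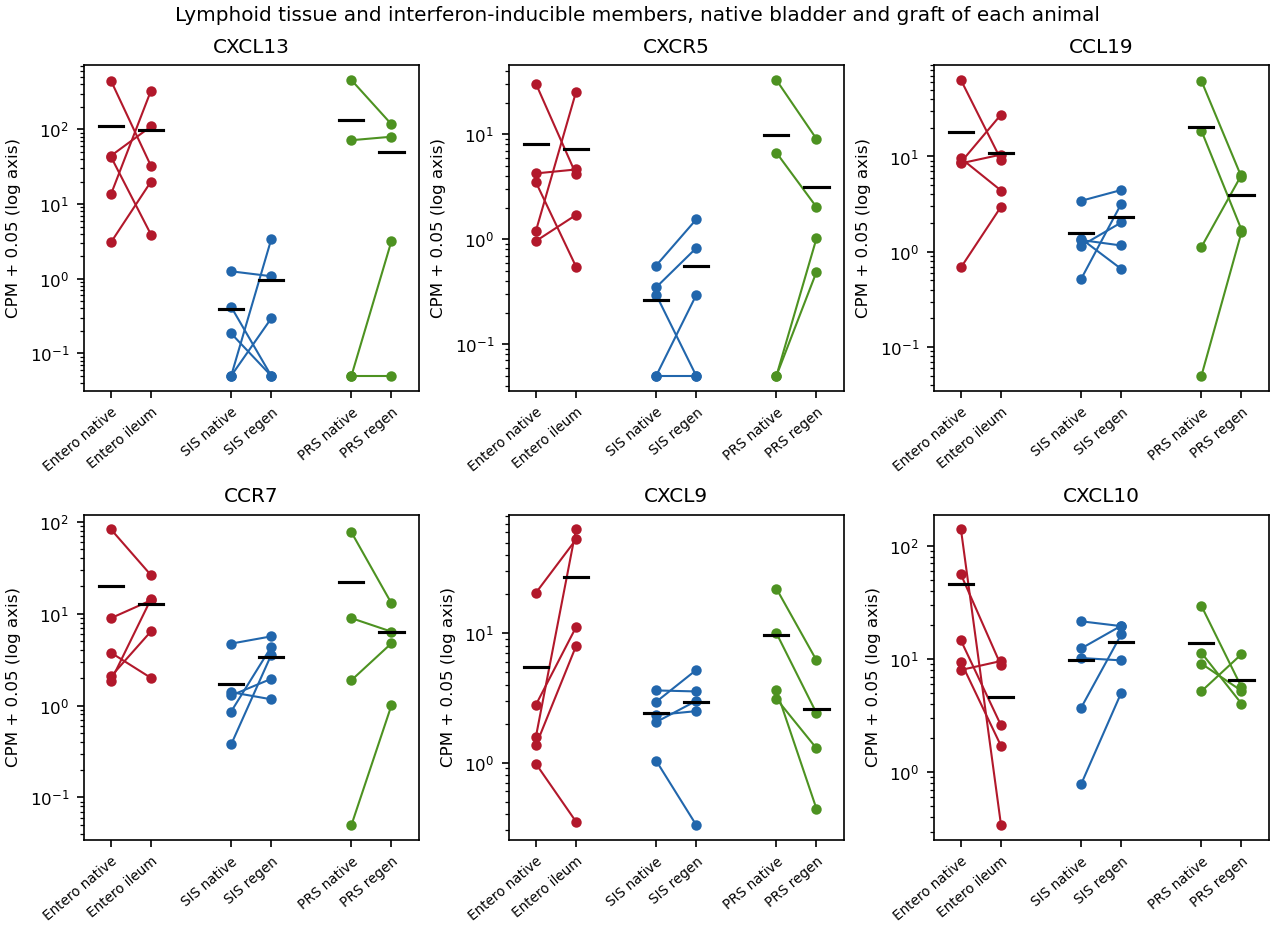
CPM + 0.05 on a log axis for 6 genes (CXCL13, CXCR5, CCL19, CCR7, CXCL9 and CXCL10) in native and grafted tissue, each line joining the libraries of 1 animal and black bars marking group means. CXCL13 spans 0 to 458 CPM within PRS native bladder alone and stays at or below 3.33 CPM in all SIS libraries.

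The stromal and epithelial members were CXCL12 and its receptor CXCR4, the epithelial ligand CXCL14, CXCL16 and its receptor CXCR6, and CXCL17, a mucosal ligand. None of the 6 passed in the Entero, SIS or PRS arm in edgeR (medians -0.55, 0.79 and 0.18, with the SIS median 0.46 without SIS graft 2).

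CXCL17 (ENSPANG00000011863) had 0, 4.71, 0, 0.0951 and 0.150 CPM in the ileum grafts and 36.2, 33.6, 3.81, 0.423 and 8.47 CPM in their native bladders. Each graft was below its own native sample, and only ileum graft 2 reached the native range. The log2 fold change was -4.06 (SE 1.64, adjusted p = 0.0971, edgeR), and it passed with the animal as a replicate block (-5.30, adjusted p = 0.0314) and in DESeq2 (adjusted p = 0.0377; 9.22% of all genes called lower by DESeq2). Without ileum graft 2 the CXCL17 change was -7.97 and passed (adjusted p = 0.0139, edgeR). Among SIS animals CXCL17 was at 0.339, 6.45, 7.96, 34.5 and 3.02 CPM in grafts and at 0.593, 1.66, 1.64, 0 and 0.726 CPM in native bladder. It was higher in 4 of 5 grafts, by 3.49 (log2, SE 1.59, adjusted p = 0.99, edgeR) or, without SIS graft 4, by 2.25. In the PRS arm it was at 1.86, 5.59, 13.002 and 289 CPM in native bladder and 13.3, 0.839, 176 and 371 CPM in grafts. PRS animal 4 was high in both tissues and animal 2 was low in the graft. The urothelium marker sum was 575 to 6396 CPM in SIS grafts and 411 to 3528 CPM in PRS grafts, and its part in CXCL17 was not tested.

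CXCL16, a transmembrane ligand of macrophages and epithelium, was at 25.8, 142, 27.1, 107 and 60.9 CPM in SIS grafts and at 30.0, 43.9, 26.9, 12.9 and 20.8 CPM in native bladder. SIS grafts 2, 4 and 5 lay above all native libraries and the other grafts within their range. The change was 1.43 (log2, SE 0.57, adjusted p = 0.918, edgeR, higher in 4 of 5 animals), or 1.03 without SIS graft 2. In the PRS arm CXCL16 was at 30.5, 33.8, 31.4 and 110.0 CPM in native bladder and 72.8, 16.4, 167 and 151 CPM in grafts, higher in 3 of 4 animals. CXCL12 stayed between 26.9 and 240.4 CPM in all 28 libraries. It was lower in the ileum graft in 4 of 5 animals, and passed as lower only when scaled by library totals alone. CXCL14 was at 1.90 to 43.6 CPM over all libraries. CXCR4 was highest in Entero native 2 (175 CPM) and PRS native 4 (168 CPM), the libraries that also had the highest CCR7.

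The genes acting in type 2 responses and on regulatory T cells included the eotaxins CCL11, CCL24 and CCL26, the CCR4 ligands CCL17 and CCL22, and CCR4 and CCR8. In ileum grafts 1 of the 7 tested rose, and the list's median was 0.62. CCL24 (ENSPANG00000022015) was at 3.97, 14.3, 11.3, 8.22 and 16.6 CPM in ileum grafts and at 2.28, 0.668, 2.14, 1.23 and 0.812 CPM in native bladder, without overlap. It rose by 2.93 (log2, SE 0.83, 95% interval 1.23 to 4.63, adjusted p = 0.016, edgeR, 5 of 5 animals), a call kept on leaving out each library in turn. The scaffold libraries stayed at or below 1.72 CPM. The mast cell and eosinophil markers (8 of 10 found) summed to 24.2 to 55.2 CPM in ileum grafts and 51.1 to 749 CPM in Entero native bladder, and their part was not tested.

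CCL22, a ligand of CCR4 made by dendritic cells and macrophages, was at 5.36, 17.3, 1.63, 2.01 and 5.27 CPM in SIS grafts and at 1.81, 1.45, 0.240, 0.246 and 0.171 CPM in SIS native bladder. Each of the 5 grafts exceeded its own native sample, and only graft 3 fell within the native range. The log2 fold change was 2.99 (SE 0.87, adjusted p = 0.571, edgeR), 2.17 without SIS graft 2, and DESeq2 called it (3.01, adjusted p = 0.0414). CCL11 was at 13.6, 226, 7.09, 1.76 and 4.88 CPM in SIS grafts and 11.4, 7.99, 13.8, 3.93 and 4.74 CPM in native bladder. Its log2 fold change of 2.60 (SE 1.03, adjusted p = 0.918, edgeR) rested on SIS graft 2 and was -0.29 without it. CCL17 and CCL26 were also highest of all libraries in SIS graft 2, at 8.88 and 18.5 CPM. The median of this list in the SIS arm was 2.60, or 0.07 without SIS graft 2, and in the PRS arm it was -0.41.

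The remaining members were mostly scarce. CCR1, a receptor of monocytes and macrophages, was at 0 to 8.77 CPM over all libraries. CCL18, a macrophage product, reached 15.5 CPM in an ileum graft and 14.4 CPM in a SIS graft and stayed at or below 0.451 CPM in the PRS arm. CCL4 and CCL3L3 were at or below 5.83 and 3.71 CPM, and both belong to families of near-identical copies between which reads can be split. CCL27, a ligand of CCR10, was the only member of SIS grafts that did not overlap with native bladder, with grafts at 0 to 0.504 CPM and native libraries at 0.559 to 1.15 CPM, lower in the graft in 5 of 5 animals. Of all genes tested, 0.524% lay wholly below in that comparison. XCR1, the receptor of cross-presenting dendritic cells, had 32 reads summed over the PRS native libraries and 0 over the PRS grafts, at least 10.1-fold lower when the graft total is set at the floor of 3 reads over the group. The 32 reads came from PRS native 1 (12 reads) and PRS native 4 (20 reads), with none in PRS native 2 and 3. Without PRS native 4 the XCR1 bound was 4.68-fold. This bound pools the reads of all animals, and XCR1 did not pass in edgeR (log2 fold change -5.96).

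Genes that act with the chemokine system were read from 4 further lists. Of 12 tested genes for chemokines under other symbols and scavenging receptors, 2 rose and 0 fell in the ileum grafts (7.72% and 7.33% of all genes). CCRL2, which binds chemerin without signalling, was at 15.3, 32.6, 6.38, 14.2 and 25.4 CPM in ileum grafts and at 5.06, 4.47, 5.99, 2.19 and 2.51 CPM in native bladder, a rise of 2.21 (log2, adjusted p = 0.00913, edgeR). ACKR4, a scavenger of CCL19, CCL21 and CCL25, was at 57.7, 38.2, 24.8, 42.9 and 36.8 CPM against 15.4, 13.6, 14.9, 14.6 and 18.6 CPM, a rise of 1.38 (adjusted p = 0.0233, edgeR). For both genes all grafts lay above all native libraries. The ACKR4 call was lost when the animal was a block (1.33, adjusted p = 0.0576) and with library totals alone (0.95, adjusted p = 0.0771).

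Of 17 tested cytokine genes of the pathways that induce chemokines, 2 fell in ileum grafts and 0 rose (7.33% and 7.72% of all genes). IL33, an alarmin of epithelium and stroma, was at 10.9, 37.9, 8.86, 11.4 and 4.44 CPM in ileum grafts and at 309, 141, 239.7, 88.8 and 269 CPM in native bladder, so that it fell by 3.83 on the log2 scale (adjusted p = 1.69e-05, edgeR). IL1A was at 1.41, 26.7, 0, 5.04 and 0.449 CPM against 183, 75.7, 579, 20.2 and 83.0 CPM (log2 fold change -4.81, adjusted p = 0.00786, edgeR). Both were lower in the graft of all 5 animals, and the IL1A groups met only through ileum graft 2 and native 4.

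Among 19 genes of receptor signalling and ligand processing, GNB1 (0.63, log2) and DPP4 rose in ileum grafts and ADRBK2 (-1.67), SDC1 (-2.66) and SDC4 (-1.70) fell. Over all genes tested, 7.72% rose and 7.33% fell. DPP4, the protease that trims the amino terminus of CXCL10, CXCL12 and other chemokines, was at 369.8, 100.1, 86.5, 22.8 and 271 CPM in ileum grafts and at 4.70, 3.25, 2.74, 8.57 and 4.52 CPM in native bladder, and rose by 5.16 (log2, adjusted p = 6.72e-05, edgeR). Under the animal block the calls of ADRBK2 (adjusted p = 0.0958), SDC1 (0.104) and SDC4 (0.0646) were lost, and with library totals alone that of GNB1 (0.17, adjusted p = 0.466). On leaving out 1 library at a time the ADRBK2 call was lost in 7 of 10 fits, the SDC4 call in 2 and the ACKR4 call in 1. None of 19 tested NF-kB, AP-1 and interferon signalling genes passed in the Entero arm (median -0.11), where 15% of all genes passed.

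In the scaffold arms 0 genes of these 4 lists passed in edgeR (0% of all genes). In the SIS arm, the 19 NF-kB, AP-1 and interferon genes had a median log2 fold change of 1.15, with 18 of 19 above 0. Of these, 10 were higher at an unadjusted p under 0.05 in edgeR, against 3.73% of all genes. Without SIS graft 2 the median was 0.47 and 3 were higher, against 2.39% of all genes. The inducing cytokines were above 0 in 17 of 17 cases (median 1.44), and in 15 of 17 without that library (median 1.01). Several of these genes were near the floor. IL22, IFNG, IL17A and LTA averaged 0.028, 0.143, 0.140 and 0.220 CPM in SIS grafts and 0, 0, 0.024 and 0.135 CPM in SIS native bladder. The direction of such genes rests on few reads. Of all genes tested, 52.5% were above 0 in the SIS arm with all libraries. IL6 was at 1.42, 599, 0.408, 5.49 and 4.92 CPM in SIS grafts and at 0.647, 0.723, 0.240, 0.409 and 1.32 CPM in native bladder, with SIS graft 2 far above every other SIS library. CSF3, the granulocyte growth factor, was at 0.814, 35.6, 0.707, 35.3 and 1.51 CPM in SIS grafts, high in the same pair of libraries (2 and 4) as IL8 and CXCL6, and its log2 fold change of 6.70 was called by DESeq2 only (adjusted p = 0.0432). In PRS grafts CSF3 was at 2.63, 0, 75.7 and 20.8 CPM.

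**Figure D5:**
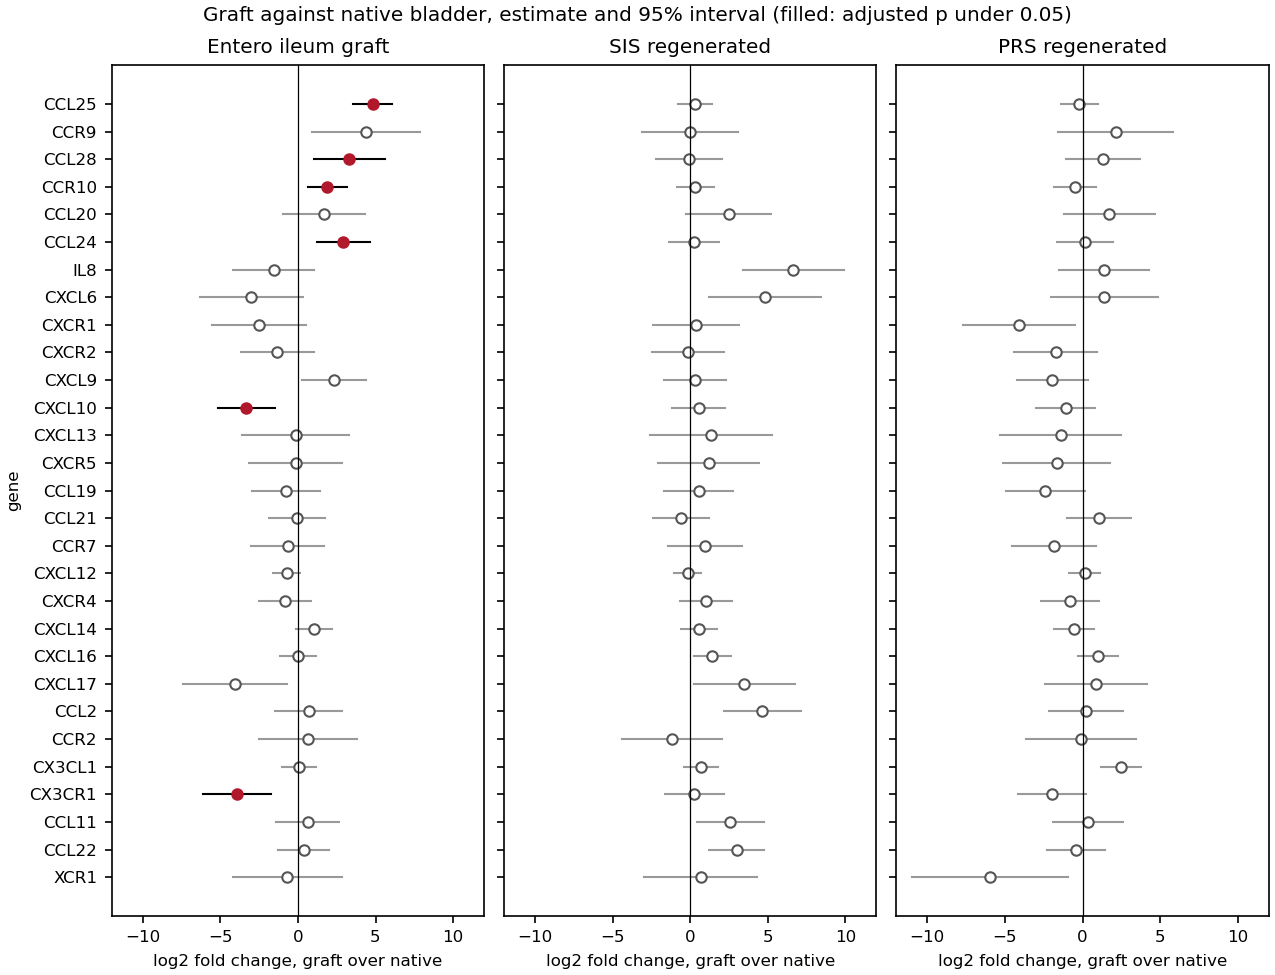
Log2 fold change of grafted against native tissue with its 95% interval for the named members in the Entero, SIS and PRS arms, filled red points marking an adjusted p under 0.05 (edgeR). The filled points, among them CCL25 at 4.82 and CX3CR1 at -3.91, are all in the Entero panel.

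Whether the change from native to grafted tissue differed between arms was tested directly as the difference of the changes. Against the Entero arm, 4 members differed in the SIS arm (3 with a higher and 1 with a lower change), where 6.56% of all genes differed (3.59% higher, 2.97% lower). CCL25 was the lower one, at -4.53 (log2, SE 0.78, adjusted p = 0.00066, edgeR). IL8 differed by 8.19 (SE 1.99, adjusted p = 0.0111), CXCL6 by 7.83 (SE 2.37, adjusted p = 0.0457) and CXCL17 by 7.55 (SE 2.28, adjusted p = 0.0449). Each of these 3 was above 0 in the SIS arm and below 0 in the Entero arm, and each difference had a wide interval, for IL8 from 4.11 to 12.28. The IL8 difference was 5.08 without SIS graft 2 and then missed the threshold (adjusted p = 0.0599). The CXCL17 and CXCL6 calls were lost on leaving out any of 16 and 14 of the 20 libraries (6.31 to 11.46, adjusted p up to 0.0994, and 6.75 to 8.86, adjusted p up to 0.0845). Without SIS graft 2, 2 members differed, and 1238 of 17133 genes tested differed (1127 of 17177 with all libraries).

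For the PRS arm, CCL25 was the 1 member that differed from the Entero arm in edgeR, at -5.02 (SE 0.84, adjusted p = 0.000916). Of all genes tested, 3.47% differed, made up of 1.56% higher and 1.91% lower. DESeq2 called 4 members (1 higher, 3 lower; 3.17% and 3.57% of all genes). Between the PRS and SIS arms 0 members differed (0% of all genes), with 1 higher and 5 lower at an unadjusted p under 0.05 (2% and 1.98%), and DESeq2 called 0. Among the pathway lists IL33 differed from the Entero arm in both scaffold arms (4.17, adjusted p = 0.000538 in SIS, and 4.24, adjusted p = 0.00149 in PRS). DPP4 differed in the opposite direction (-6.18, adjusted p = 0.000556, and -4.26, adjusted p = 0.0222, the latter lost under the animal block at -4.48, adjusted p = 0.0837). For the SIS arm IL1A (5.68, adjusted p = 0.0284), IL6 (6.99, adjusted p = 0.0354), RELA (1.16, adjusted p = 0.0249) and SDC4 (2.38, adjusted p = 0.0399) also differed. Under the animal block the adjusted p was 0.0616 for IL1A, 0.634 for IL6 (2.17), 0.0631 for RELA and 0.0734 for SDC4, and without SIS graft 2 the IL6 difference was 1.65 (adjusted p = 0.586). Leaving out single libraries ended the SDC4 call in 15 of 20 fits, that of IL6 in 10, IL1A in 4 and RELA in 3, and in the PRS arm that of DPP4 in 2. These comparisons share the Entero libraries.

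When grafts were compared with each other, 10 members differed between SIS and ileum grafts, 3 higher and 7 lower in SIS (21.1% of all genes differed, 10.9% higher and 10.2% lower). The 7 lower were CCL25 (-6.04, adjusted p = 5.11e-07), CCL24 (-4.01, 0.00172), CCR9 (-6.54, 0.0147), CCL28 (-3.74, 0.0198), CXCL13 (-6.78, 0.0274), CXCL9 (-3.24, 0.0282) and CCR10 (-1.86, 0.0282), in edgeR. The higher ones were CCL2 (4.52, adjusted p = 0.00852), CX3CR1 (3.68, 0.014) and IL8 (4.83, 0.0187). Without SIS graft 2 CCL2 was at 0.19 (adjusted p = 0.881) and IL8 at 1.71 (adjusted p = 0.311). Of the other calls, CCR10 and CXCL13 were each lost on leaving out any of 5 single libraries and CXCL9 on leaving out any of 6. The SIS grafts lay wholly above the ileum grafts for 1 member and wholly below for 5 (6.24% and 6.33% of all genes). All 9 B and plasma cell markers tested were lower in SIS grafts (summed range 10.6 to 17.9 CPM against 57.5 to 1250.3 CPM), beside the CXCL13 and CCR9 values, and their part was not tested.

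In PRS against ileum grafts 7 members differed, 3 higher and 4 lower in PRS (14% of all genes differed, 7.21% higher and 6.75% lower). CCL25 (-6.23, adjusted p = 2.83e-06), CCL24 (-4.11, 0.0047), CXCL9 (-3.42, 0.0479) and CCR10 (-1.92, 0.0483) were lower. CX3CL1 (2.85, adjusted p = 0.0014), CXCL17 (7.14, 0.0118) and CX3CR1 (3.17, 0.0459) were higher. Without PRS graft 3 the CX3CL1 difference was 1.31 (adjusted p = 0.0578), and the CX3CR1 call was lost on leaving out any of 5 libraries (adjusted p up to 0.172). The CCR10 call was lost in 7 of the 9 such fits (adjusted p up to 0.134) and the CXCL9 call in 5 (adjusted p up to 0.13). The CXCL17 difference was 11.06 without ileum graft 2. The PRS grafts lay wholly below the ileum grafts for CCL24, CCL25 and CCR10 (5.72% of all genes). Between PRS and SIS grafts 0 members passed (0% of all genes), with 4 higher and 5 lower in PRS at an unadjusted p under 0.05 (1.9% and 2.54%), and DESeq2 called 0.

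The native bladders of the arms were compared with each other as a background to the graft values. In SIS against Entero native bladder 0 members passed in edgeR (0% of all genes), but 40 of 45 had log2 fold changes below 0, with a median of -1.13 against 0.00 for all genes, and 13 were lower and 0 higher at an unadjusted p under 0.05 (3.45% of all genes were lower). DESeq2 called CXCL13 lower (0.27% of all genes). CXCL13 and CXCR5 were the members whose SIS native range lay wholly below the Entero native range (0.751% of all genes), at 0 to 1.21 CPM and 0 to 0.512 CPM. The B and plasma cell marker sum was 7.45 to 22.8 CPM in SIS native bladder and 21.5 to 1030.5 CPM in Entero native bladder, and the T and natural killer cell sum 14.5 to 114 CPM and 59.5 to 377 CPM. The neutrophil marker sum did not overlap between them, at 2.58 to 111 CPM in SIS and 119.9 to 411 CPM in Entero native bladder. Gene by gene, 0 of the 5 tested neutrophil markers passed in either direction. The part of these cell types was not tested. In PRS against SIS native bladder 10 members were higher and 0 lower unadjusted (4.19% of all genes were higher), with a median of 0.93, 0 called in edgeR (0%) and 2 called higher in DESeq2, CXCL13 and CXCL17 (0.284%). In PRS against Entero native bladder 0 passed (0%), 2 were lower unadjusted (1.72% of all genes were lower), and DESeq2 called 0. These comparisons share their native libraries with the comparisons of graft with native.

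Animals within an arm differed in direction. In the Entero arm the number of the 45 tested members higher in the graft ran from 17 in animal 1 to 32 in animal 4. Among SIS animals it ran from 20 in animal 1 to 33 in animal 5, and among PRS animals from 15 in animal 2 to 30 in animal 1. The median graft minus native difference on log2(CPM + 0.5) spanned -0.87 to 1.52 over the Entero animals, -0.01 to 0.89 over the SIS animals and -0.51 to 0.71 over the PRS animals.

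Single libraries held the peaks of several members at once. Of the 45 tested members, 6 had their highest level of all 28 libraries in Entero native 2 (CCL19, CCR1, CCR7, CXCL11, CXCR4 and XCR1). These are lymphoid, interferon-inducible and leukocyte genes. CCR4, CCR8, CXCL13, CXCR3 and CXCR5 were among those that peaked in PRS native 4, which was also the highest of its group for 30 tested members. In SIS graft 2 the 6 that peaked were CCL2, CCL11, CCL17, CCL22, CCL26 and IL8, all ligands. PRS graft 4 held the highest CCL28, CXCL17, CXCL6 and CXCR6, and PRS graft 3 the highest CX3CL1 and CXCL16. In position, 28 of the 42 members matched in the reference annotation (RefSeq, Panubis1.0) had another member as their next gene, in 9 runs. CCL2 and CCL11 belong to 1 such run, CCL17, CX3CL1 and CCL22 to another and CCL24 and CCL26 to a further one. Neighbours did not always move together in these data. In SIS graft 2 CCL17 and CCL22 were at their highest while CX3CL1, beside them, was at 11.2 CPM within the range of the other SIS grafts.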

How the data were processed

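Total RNA from about 50 mg of tissue was poly-A selected and made into directional libraries, per the labels' protocols. The submitters' processing notes name featureCounts 1.5.0-p3, HISAT2 2.0.5 and StringTie 1.3.3b. The sources used here give no genome build, annotation or strand setting, so overlapping or antisense genes cannot be separated. The authors deposited whole-number read counts per gene for 28 libraries with gene lengths. Gene lengths in bases, as the authors deposited them, gave CPM per kb.

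The counts were fitted in R 4.3.3 with edgeR 4.0.16 (TMM scaling, filterByExpr with a minimum count of 10, quasi-likelihood test) in 1 model of 6 groups without a replicate block. Benjamini-Hochberg adjustment ran over 17177 genes in each of 13 comparisons, with a threshold of 0.05. SEs were |log2 fold change| divided by the square root of F. Library totals were 20975648 to 35669026 reads, and CPM used TMM-scaled totals of 19890651 to 38157643. The floor was 3 reads, and intervals based on reads cover counting error only. Scripts were tested on simulated data.

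Libraries of an arm with the same number come from the same animal, per the labels. Deviations from group means correlated at -0.299 to 0.707 within the 14 animals, over 0.1 in 8. Replicates are separate animals.

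Named genes were members that passed in any comparison, had 1 of the 4 smallest p in a graft comparison, or belonged to a set of well-known members, 29 in all, plus pathway genes that passed. The members and lists were chosen with earlier results of these data known. Alternatives were DESeq2 1.42.0, RLE (relative log expression) size factors, library totals alone, no filter, no mitochondrial genes, the animal as a block, the compared groups alone and leaving out each library. No sequences are printed, and 1 member is not reported here.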

Additional observations from a re-analysis of the deposited data

Results flagged for a closer look

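In 5 cases the change from native to grafted tissue differed between arms by a test of the difference (edgeR, adjusted over all genes). For SIS against Entero these were CCL25 (-4.53), IL8 (8.19), CXCL6 (7.83) and CXCL17 (7.55), and for PRS against Entero CCL25 (-5.02), all on the log2 scale.

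A single library stood far from the rest of its group in 15 of 174 gene and group pairs examined on log2(CPM + 0.5), by the size of the gap to its nearest neighbour relative to the group's range. For normally distributed values chance alone gives such a gap in about 1 in 20 groups, 8.7 here. Where all other libraries of a group had no read, the gap equals the whole range whatever the value. That rate then does not hold, so 15 and 8.7 cannot be compared directly. CCL2 was at 1196 CPM in SIS graft 2 (others 6.16 to 23.9) and at 0.101 CPM in ileum graft 1 (others 9.63 to 20.98). CXCL16 was at 110.0 CPM in PRS native 4 (others 30.5 to 33.8). CCL21 was low in SIS graft 5 at 14.8 CPM (others 54.4 to 91.8). CXCL14 was low in ileum graft 3 at 1.90 CPM (others 23.8 to 43.6) and in SIS graft 4 at 11.7 CPM (others 19.3 to 22.6). CXCL17 was at 4.71 CPM in ileum graft 2 (others 0 to 0.150), IL8 at 4.19 CPM in SIS native 2 (others 0.200 to 0.377), CCL28 at 3.23 CPM in SIS graft 4 (others 0.712 to 1.11) and CCL24 at 1.72 CPM in SIS native 3 (others 0.205 to 0.431). CCR9 was at 0.988 CPM in Entero native 2 (others 0 to 0.159) and at 0.234 CPM in PRS native 4 (others 0). CXCR1 was at 0.451 CPM in ileum graft 2 (others 0 to 0.0499) and at 0.130 CPM in PRS graft 3 (others 0), and XCR1 at 0.216 CPM in SIS native 1 (others 0). No library held more than 2 of these.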

How the results depend on the processing

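DESeq2 called 2 members for both scaffold grafts against native (CX3CL1 and IL8), 2 in the SIS arm (CCL22 and IL8), 1 in the PRS arm (CX3CL1), 4 for the PRS change minus the Entero change, 2 for PRS against SIS native (CXCL13 and CXCL17) and 1 for SIS against Entero native (CXCL13). For PRS against ileum grafts 4 were called with no filter and 2 with those groups alone, and for SIS against ileum grafts 4 with those groups alone. Leaving out 1 library at a time gave 3 to 7 calls in the Entero arm (3 without Entero native 3), 1 to 2 for the PRS minus Entero change, 2 to 5 for the SIS minus Entero change, 4 to 8 for PRS against ileum grafts and 7 to 11 for SIS against ileum grafts. The direction of CCL11 in the SIS arm reversed only without SIS graft 2 (-0.29), among 10 fits that each left out 1 library (range -0.29 to 2.89). RLE scaling and removal of mitochondrial genes moved no count of called members by over 1.5 times.

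With the animal as a replicate block, 6 members were called in the Entero arm (CXCL10 at -2.74, adjusted p = 0.0731, was lost and CXCL17 at -5.30, adjusted p = 0.0314, gained), 4 for the SIS minus Entero change, 1 for the PRS minus Entero change and 0 in the SIS arm, the PRS arm and their mean; among members it changed no other call. Groups of 4 or 5 animals limit every comparison, and genes under about 1 CPM rest on few reads.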
